A study of Mus musculus with 12 samples.

Results

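Steroid-metabolizing enzymes were examined in mouse prostate: the 5-alpha-reductases (Srd5a), the 3-beta-, 11-beta- and 17-beta-hydroxysteroid dehydrogenases (Hsd3b, Hsd11b, Hsd17b), the aldo-keto reductases (Akr1), the UDP-glycosyltransferases (Ugt) and the sulfotransferases (Sult). The genes were taken by symbol, without regard to their level, which gave 76 of the 23284 genes in the deposited table. The steroid sulfatase Sts, which the same rule names, was not analysed here. The 6 null libraries were made from prostates of mice with 2 null alleles (-/-) of the targeted gene, and the 6 wild-type libraries from prostates of +/+ mice. All mice were 4 months old and of a hybrid 129/SvImJ and C57Bl/6J background. The labels describe prostate tissue, snap frozen, poly-A selected and sequenced on an Illumina HiSeq instrument. They name neither the lobes taken nor whether each library is a separate animal, so a p-value here speaks of library-to-library spread, part or all of which could be technical.

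The prostate depends on androgen. Testosterone reaching the gland is reduced by 5-alpha-reductase to dihydrotestosterone, the more potent hormone. Dihydrotestosterone is then removed by reduction to androstanediols, by oxidation at other positions, and by conjugation to glucuronate or sulfate, and the same enzyme families act on estrogens, glucocorticoids, bile acid precursors and foreign compounds. Many members are abundant in liver, adrenal gland or gonad and low elsewhere.

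Values are the authors' deposited log2-scale expression values per gene. The deposited values hold no counts, so the depth behind them is unknown. On this scale, 1123 olfactory receptor genes, most of which prostate is not known to use, lay at 2.85 in the median. Of their values, 95% lay under 3.51, and low values near that level carry little information. A gene was tested when at least 6 libraries reached 4, and 15096 genes were. The test was limma's moderated test with Benjamini-Hochberg adjustment over all tested genes and a threshold of 0.05. The libraries of each genotype fell into 2 sets of 3 that were closer to each other than to the rest: null libraries 1, 2 and 5 against 3, 4 and 6, and wild-type libraries 1 to 3 against 4 to 6. The labels do not say what a set is, so each result is also read against the same test on the 4 set means. Seminal vesicle markers stood apart: their summed level was 16.7 to 20.4 in null libraries and 6.72 to 11.8 in wild-type libraries. All 7 of the tested markers (of 9 listed) rose in null prostate, 4 of them also on set means. Among those 4, Svs3a, Svs3b and Svs6 were under 4 in every wild-type library (highest values 3.66, 3.53 and 3.94). They passed the filter only through null libraries, so only a rise could be tested. The wild-type sum of the seminal vesicle markers split by set: it was 11.7 to 11.8 in the set of libraries 1 to 3, while the set of libraries 4 to 6 had 6.72 to 6.97. Of 6 adipocyte markers, 3 rose: Plin1, Car3 and Retn. On set means 2 passed, Retn and Lep, and Lep had not passed over the 12 libraries (limma adjusted p = 0.151). The adipocyte markers summed to 6.59 to 10.9 in null libraries, while the wild-type sets had 8.14 to 8.31 (libraries 1 to 3) and 6.70 to 6.81 (libraries 4 to 6). Of 6 prostate secretory luminal markers, the defining genes of the labelled tissue, 5 were well above that level in every library, while Sbp, a secreted protein, was at 3.13 to 5.06 in null libraries and 19.0 to 19.2 in wild-type libraries. All 6 were lower in null prostate, from -0.30 for Krt18 and -0.44 for Krt8 to -15.04 for Sbp, and 4 passed on set means. Their summed level, 16.1 to 16.5 in null libraries and 19.7 to 19.9 in wild-type libraries, rests mostly on Pbsn in null prostate and on Sbp in wild-type prostate. All 5 macrophage markers were lower in null prostate over the 12 libraries, and only 1 of them, C1qc, passed on set means. Their summed level was 10.2 to 10.6 in null libraries and 11.1 or more in wild-type libraries. Of 4 liver markers 3, among them Alb, were under the olfactory receptor level. The part of seminal vesicle, luminal cells, adipocytes or macrophages in the enzyme differences was not tested. In bulk tissue, fewer cells of a type and less RNA per cell cannot be told apart.

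Of the 76 enzyme genes, 32 passed the filter, and 22 of those passed the test: 4 rose and 18 fell in null prostate. Over all tested genes 53.1% passed, 28% higher and 25.1% lower. The median difference was -0.25 (log2, null minus wild type) over the 32 tested enzymes and 0.01 over all tested genes. On the 4 set means, 1 enzyme was higher and 7 were lower, where 14.5% of all tested genes passed (7.58% higher, 6.96% lower). Changes of at least 2-fold were found for 2 enzymes that rose (Hsd17b11 and Ugt2b35) and 4 that fell (Akr1c12, Akr1c13, Sult1e1 and Ugt1a7c). Among all tested genes 7.01% changed by that much, 2.99% higher and 4.01% lower. The null and wild-type values did not overlap for 11 of the tested enzymes, 1 higher and 10 lower, where 32.6% of all tested genes were separate, 17.4% higher and 15.2% lower. By family, the falls were 6 of the 7 tested Akr1 genes, both Hsd11b genes, 5 of 7 Hsd17b, 1 of 2 Hsd3b, 1 of 3 Srd5a, 2 of 7 Sult and 1 of 4 Ugt. The rises were 3 of 4 Ugt and 1 of 7 Hsd17b. Those that passed the filter are not all members of a family: Hsd11b2, Hsd17b1 and Ugt1a7c, for example, reached 4 in all 6 wild-type libraries and in only 3 null libraries.

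**Figure D1:**
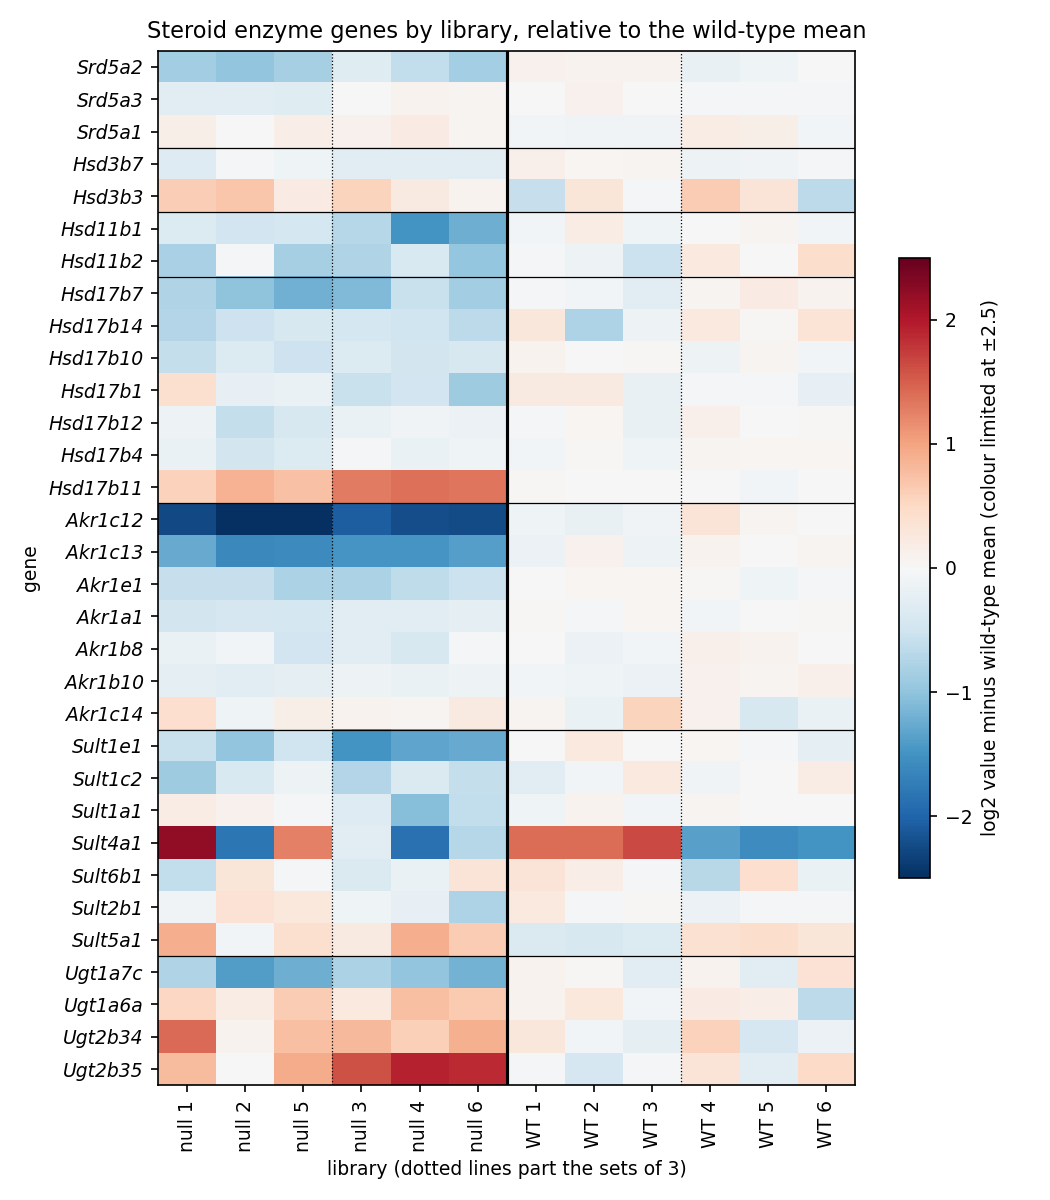
Each enzyme that passed the filter (rows, by family) in each library (columns, null left and wild type right, grouped by library set). Colour gives the log2 value minus the gene's wild-type mean, limited at the ends of the colour scale. Akr1c12 and Akr1c13 are low in all 6 null libraries, while Sult4a1 divides the wild-type libraries by set.

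Promoters of the genes that bear the main contrasts are shown first. Akr1c12 and Akr1c13 are shown because they fell the most of the tested enzymes and are near copies of each other. In the RefSeq promoters of build GRCm38.p6 (250 bases before to 50 after the start), Akr1c12 lies at chr13:4279350-4279649 on the minus strand and Akr1c13 at chr13:4190937-4191236 on the plus strand. Capitals mark the bases that differ between them or have no partner in the other window.
Akr1c12: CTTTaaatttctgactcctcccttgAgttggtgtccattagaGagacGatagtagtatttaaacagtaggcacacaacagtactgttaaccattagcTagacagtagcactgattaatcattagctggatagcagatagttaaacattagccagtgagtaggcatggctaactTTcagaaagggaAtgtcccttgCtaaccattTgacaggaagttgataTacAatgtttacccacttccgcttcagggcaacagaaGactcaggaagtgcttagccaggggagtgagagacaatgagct
Akr1c13: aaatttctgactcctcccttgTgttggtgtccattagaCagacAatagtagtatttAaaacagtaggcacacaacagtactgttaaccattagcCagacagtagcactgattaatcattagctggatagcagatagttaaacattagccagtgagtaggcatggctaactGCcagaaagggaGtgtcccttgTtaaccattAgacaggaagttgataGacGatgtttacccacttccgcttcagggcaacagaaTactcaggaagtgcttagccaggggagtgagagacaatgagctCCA
Over 296 aligned bases the windows were 95.9% identical, with 12 substitutions, 4 unpaired bases in each window and a longest identical run of 75 bases. Against the promoters of the other Akr1c genes in the table, identity was 56.0% to 67.1%.

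The 5-alpha-reductase promoters are shown because Srd5a1 and Srd5a2 catalyse the same reaction and moved differently. Srd5a1 lies at chr13:69611414-69611713 and Srd5a2 at chr17:74047811-74048110, both on the minus strand of the same build. Capitals mark GC boxes, written GGGCGG and searched on both strands.
Srd5a1: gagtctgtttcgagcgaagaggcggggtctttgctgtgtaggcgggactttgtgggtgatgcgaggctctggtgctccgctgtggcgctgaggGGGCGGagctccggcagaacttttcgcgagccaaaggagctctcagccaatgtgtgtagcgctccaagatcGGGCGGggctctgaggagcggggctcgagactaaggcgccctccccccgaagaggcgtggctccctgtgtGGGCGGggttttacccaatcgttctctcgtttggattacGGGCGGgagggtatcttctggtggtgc
Srd5a2: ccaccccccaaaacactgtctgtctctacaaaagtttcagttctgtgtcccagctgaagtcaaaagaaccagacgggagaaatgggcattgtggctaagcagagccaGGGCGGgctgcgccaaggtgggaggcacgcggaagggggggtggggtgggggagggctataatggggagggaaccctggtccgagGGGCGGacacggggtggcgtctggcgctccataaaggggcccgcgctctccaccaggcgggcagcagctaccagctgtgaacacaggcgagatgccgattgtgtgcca
Srd5a1 holds 4 GC boxes and Srd5a2 holds 2, while 35.7% of all 32851 promoters of this length hold at least 1. Both windows are rich in G and C, at 63.0% and 62.7%, where the median promoter has 52.7% and the Akr1c12 and Akr1c13 windows have 42.3% and 43.7%. A match is a description of the letters and not a bound site.

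The first question was which 5-alpha-reductase the null prostate holds. Srd5a2, the isoenzyme best known for making dihydrotestosterone in the prostate, fell in null prostate, while neither Srd5a1 nor Srd5a3 passed the test. Srd5a2 had a lowest, median and highest value of 6.02, 6.15 and 6.70 in null libraries, against 6.81, 7.05 and 7.11 in wild-type libraries. The groups did not overlap, but the highest null library, library 3, came within 0.11 of the lowest wild-type library. The difference was -0.74 (SE 0.115, n = 6 and 6, limma adjusted p = 8.08e-05), a 1.68-fold lower level, and with the 4 set means the adjusted p was 0.0553. Srd5a1, which acts on the same steroids and is known from many tissues, had 6.60, 6.75 and 6.82 in null libraries, against 6.52, 6.54 and 6.80 in wild-type libraries. These ranges overlapped, with a difference of 0.11 (95% interval -0.06 to 0.29, limma adjusted p = 0.267). Srd5a3, a polyprenol reductase needed for protein glycosylation, had 8.27, 8.42 and 8.66 in null libraries, against 8.52, 8.56 and 8.68 in wild-type libraries. Its difference was -0.12 (95% interval -0.29 to 0.04, adjusted p = 0.204), and the null sets differed from each other, at 8.28 for libraries 1, 2 and 5 and 8.62 for libraries 3, 4 and 6. Without the first of these sets the Srd5a3 difference was 0.05 (adjusted p = 0.536), and without the second it was -0.29 (adjusted p = 0.00155).

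Within each library, the balance of the isoenzymes was taken as the log2 value of Srd5a2 minus that of Srd5a1. It averaged -0.47 ± 0.23 in null libraries and 0.39 ± 0.25 in wild-type libraries (SD, n = 6 each). Srd5a2 was below Srd5a1 in every null library (-0.64 to -0.03) and above it in every wild-type library (0.01 to 0.57). These signs compare deposited values that are not stated to be scaled by transcript length, so only the difference between genotypes is comparable. That difference was -0.86 (2-sided exact permutation test p = 0.00216, the smallest this design allows, or 0.00433 adjusted over the 2 isoenzyme pairs tested). That test treats libraries as independent. The set means were -0.61 and -0.33 in null and 0.57 and 0.21 in wild-type prostate, and an exact permutation test on them gave p = 0.333, the smallest that 4 sets allow. Leaving out any 1 library gave -0.95 to -0.82, and leaving out any 1 set -1.04 to -0.68.

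**Figure D2:**
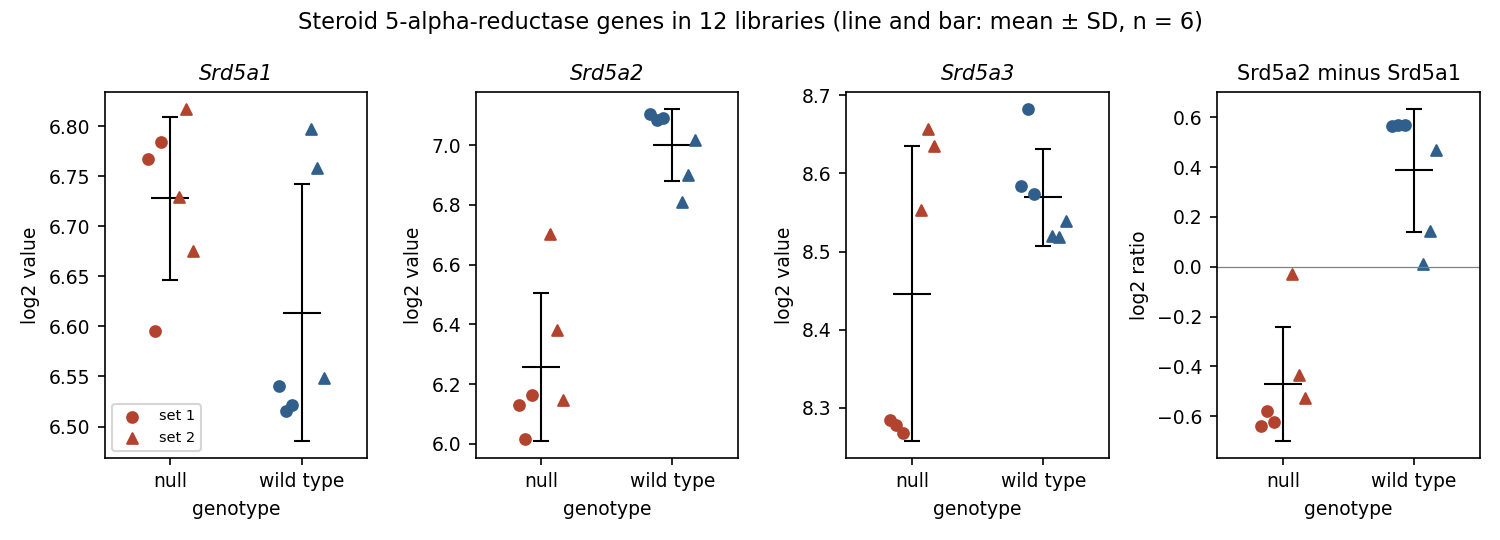
Deposited log2 values of Srd5a1, Srd5a2 and Srd5a3, and the log2 ratio of Srd5a2 over Srd5a1, in each library (points), null left and wild type right, with the group mean and SD, and circles and triangles for the library sets. The Srd5a2 values of the 2 genotypes do not overlap, and the ratio is below 0 in the 6 null libraries and above 0 in the 6 wild-type libraries.

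Upstream of androgens and bile acids, the Hsd3b family oxidizes and isomerizes 3-beta-hydroxysteroids. Of its 7 members in the table only Hsd3b7 and Hsd3b3 passed the filter. Hsd3b7, which acts on bile acid precursors rather than on sex steroids, had 8.75, 8.80 and 9.02 in null libraries, against 8.95, 9.06 and 9.19 in wild-type libraries. The ranges overlapped slightly and the difference was small, at -0.21 (SE 0.0611, adjusted p = 0.00980, and 0.237 on set means). Hsd3b3 lay near the lower limit, with 3.86, 4.17 and 4.48 in null libraries, against 3.12, 3.92 and 4.42 in wild-type libraries. Its difference of 0.40 had an adjusted p of 0.151. The other 5, including Hsd3b1 and Hsd3b6, which act in steroid synthesis in the gonads and adrenal gland of the mouse, had means under the 3.51 level of the olfactory receptor genes.

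Both 11-beta-hydroxysteroid dehydrogenases were lower in null prostate. Hsd11b1 regenerates active corticosterone from 11-dehydrocorticosterone, and Hsd11b2 runs the opposite reaction. Hsd11b1 had 5.38, 6.28 and 6.54 in null libraries, against 6.76, 6.84 and 7.07 in wild-type libraries. No null library reached the lowest wild-type value, but the null sets were apart, with a mean of 6.45 in libraries 1, 2 and 5 and 5.73 in libraries 3, 4 and 6. The difference was -0.78 (SE 0.179, adjusted p = 0.00200, and 0.109 on set means). Summed smooth muscle markers, of which 0 of 4 passed the test, were 15.9 to 16.1 in the first of these null sets, 15.3 to 15.6 in the second and 15.7 to 15.8 in wild-type libraries. Summed fibroblast markers were 13.2 to 13.5, 13.0 to 13.2 and 13.3 to 13.5 in the same order. Of these 4 markers 1 was lower in null prostate, and 0 passed on set means. The part of smooth muscle and fibroblasts in the Hsd11b1 difference was not tested. Hsd11b2 was low throughout, with 3.77, 3.97 and 4.72 in null libraries, against 4.21, 4.75 and 5.18 in wild-type libraries. These ranges overlapped, and the difference was -0.63 (SE 0.191, adjusted p = 0.0126, and 0.136 on set means). The balance of Hsd11b1 over Hsd11b2 averaged 1.97 ± 0.59 in null libraries and 2.12 ± 0.35 in wild-type libraries (log2, SD, n = 6 each). Its difference of -0.15 did not pass (2-sided exact permutation test, p = 0.615, and 0.615 adjusted over the 2 pairs), and it was 0.04 without null library 4.

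Among the 17-beta-hydroxysteroid dehydrogenases, 1 rose and 5 fell. The enzyme that rose was Hsd17b11, a lipid droplet protein that oxidizes 5-alpha-androstane-3-alpha,17-beta-diol, the reduced form of dihydrotestosterone. Hsd17b11 had 11.48, 11.99 and 12.28 in null libraries, against 10.83, 10.91 and 10.93 in wild-type libraries. All 6 null libraries lay above all wild-type libraries, by a gap of 0.55, and the null set means were 11.63 and 12.24. The difference was 1.03 (SE 0.128, adjusted p = 1.58e-05, and 0.0324 on set means), a 2.05-fold higher level. Summed urothelium markers ran the same way, at 13.2 to 13.5 in null libraries 1, 2 and 5, 13.7 to 14.4 in null libraries 3, 4 and 6, and 12.5 to 12.8 in wild-type libraries, and summed basal markers were 10.9 to 11.5 in null and 10.5 to 10.6 in wild-type libraries. Of these lists 2 of 3 tested urothelium genes and 2 of 3 basal genes were higher in null prostate. On set means 2 urothelium genes and 1 basal gene passed. The part of urothelium and basal cells in the Hsd17b11 difference was not tested.

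Hsd17b7, which reduces estrone to estradiol and also serves cholesterol synthesis, fell the most in its family. It had 6.20, 6.46 and 6.85 in null libraries, against 7.12, 7.42 and 7.60 in wild-type libraries. The groups did not overlap, and the difference was -0.91 (SE 0.118, adjusted p = 1.53e-05, and 0.0248 on set means). Hsd17b10, a mitochondrial enzyme of isoleucine breakdown that also oxidizes steroids, fell by less, with a difference of -0.44 (adjusted p = 8.71e-06, and 0.0324 on set means). Hsd17b14, an oxidizing enzyme that can act on estradiol, had 4.36, 4.58 and 4.68 in null libraries, against 4.32, 5.23 and 5.43 in wild-type libraries. One wild-type library lay below every null library, and the difference of -0.54 had an adjusted p of 0.0167 with limma and 0.112 with an exact rank-sum test, and 0.162 on set means. Hsd17b12, which serves fatty acid elongation, and Hsd17b4, a peroxisomal enzyme of fatty acid breakdown, had differences of -0.25 and -0.21 (adjusted p = 0.0189 and 0.0147), and neither passed on set means. Hsd17b1, which makes estradiol in the ovary, did not pass (-0.32, adjusted p = 0.174). Hsd17b3, the testosterone-forming enzyme of the testis, and Hsd17b2, which oxidizes testosterone and estradiol, did not pass the filter.

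The aldo-keto reductases held the largest falls. Akr1c12 and Akr1c13 are neighbouring genes in the mouse Akr1c cluster of chromosome 13, separated only by Akr1c19 among protein-coding genes, and encode cytosolic reductases that use steroids and other carbonyl compounds. Akr1c12 had 5.24, 5.67 and 5.86 in null libraries, against 7.72, 7.87 and 8.24 in wild-type libraries. The gap between the groups was 1.87, wider than the whole range within either genotype. The difference was -2.34 (SE 0.122, adjusted p = 1.74e-09, and 0.00336 on set means), a 5.06-fold lower level. Akr1c13 had 6.61, 6.75 and 6.96 in null libraries, against 8.06, 8.25 and 8.33 in wild-type libraries. The groups were again separate, with a difference of -1.46 (SE 0.0799, adjusted p = 2.97e-09, and 0.00406 on set means), a 2.75-fold lower level. Coding sequences of Akr1c12 and Akr1c13 were 96.2% identical over 969 bases in the GENCODE M21 annotation, with an identical run of 228 bases. How reads were split between near-identical genes is not stated in these sources, so the 2 differences are uncertain as separate measurements. Both differed from Akr1c19 at more positions, with 77.8% identity.

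The rest of the Akr1c cluster was low. Akr1c14, the 3-alpha-hydroxysteroid dehydrogenase of mouse liver, was the only other Akr1c gene tested, and its difference of 0.14 did not pass (adjusted p = 0.494). Akr1c18, the 20-alpha-hydroxysteroid dehydrogenase that inactivates progesterone, Akr1c6, Akr1c19, Akr1c20 and Akr1c21 did not pass the filter. At the end of the same cluster, Akr1e1, which reduces 1,5-anhydrofructose rather than a steroid, had 7.81, 7.99 and 8.06 in null libraries, against 8.48, 8.62 and 8.65 in wild-type libraries. Its groups did not overlap, and the difference was -0.65 (SE 0.0608, adjusted p = 6.46e-07, and 0.0172 on set means). The remaining falls were smaller. Akr1a1, an aldehyde reductase, differed by -0.34 (adjusted p = 6.71e-05), Akr1b10 by -0.20 (0.00713) and Akr1b8 by -0.24 (0.0321), and none of the 3 passed on set means. The Akr1b8 call was lost when any of 7 single libraries was left out.

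Akr1b7, an aldose-reductase-like protein secreted in the mouse vas deferens, did not pass the filter but divided the null libraries. It was at 6.29, 8.04 and 7.48 in null libraries 1, 2 and 5, at 3.46, 4.29 and 3.90 in null libraries 3, 4 and 6, and between 2.89 and 3.97 in wild-type libraries. With no filter its difference was 2.06 (adjusted p = 0.0744). Summed epididymis and vas deferens markers were 8.70, 11.4 and 10.5 in null libraries 1, 2 and 5, 6.38 to 6.56 in null libraries 3, 4 and 6, and 8.20 to 8.88 in wild-type libraries. The 2 markers with a mean over the 12 libraries above the olfactory receptor level ran opposite ways. Adam7, the only one tested, was at 2.53 to 3.77 in null libraries and 7.85 to 8.60 in wild-type libraries, a difference of -4.99 (adjusted p = 3.31e-10, and 0.00130 on set means). With every null value under 4, Adam7 passed the filter only through wild-type libraries, so only a fall could be tested. Crisp1 was at 2.73 to 11.3 in null libraries and 2.15 to 4.32 in wild-type libraries. Of those 10 markers, the other 8 had means over the 12 libraries under the level of the olfactory receptor genes. Among these 8, Cst11, which was not tested, was at 3.67 to 4.22 in null libraries and 2.56 to 3.11 in wild-type libraries. Summed seminal vesicle markers were also higher in null libraries 1, 2 and 5 (18.4, 20.4 and 19.7) than in null libraries 3, 4 and 6 (16.7, 17.9 and 17.4). The part of such tissues in the Akr1b7 values was not tested.

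**Figure D3:**
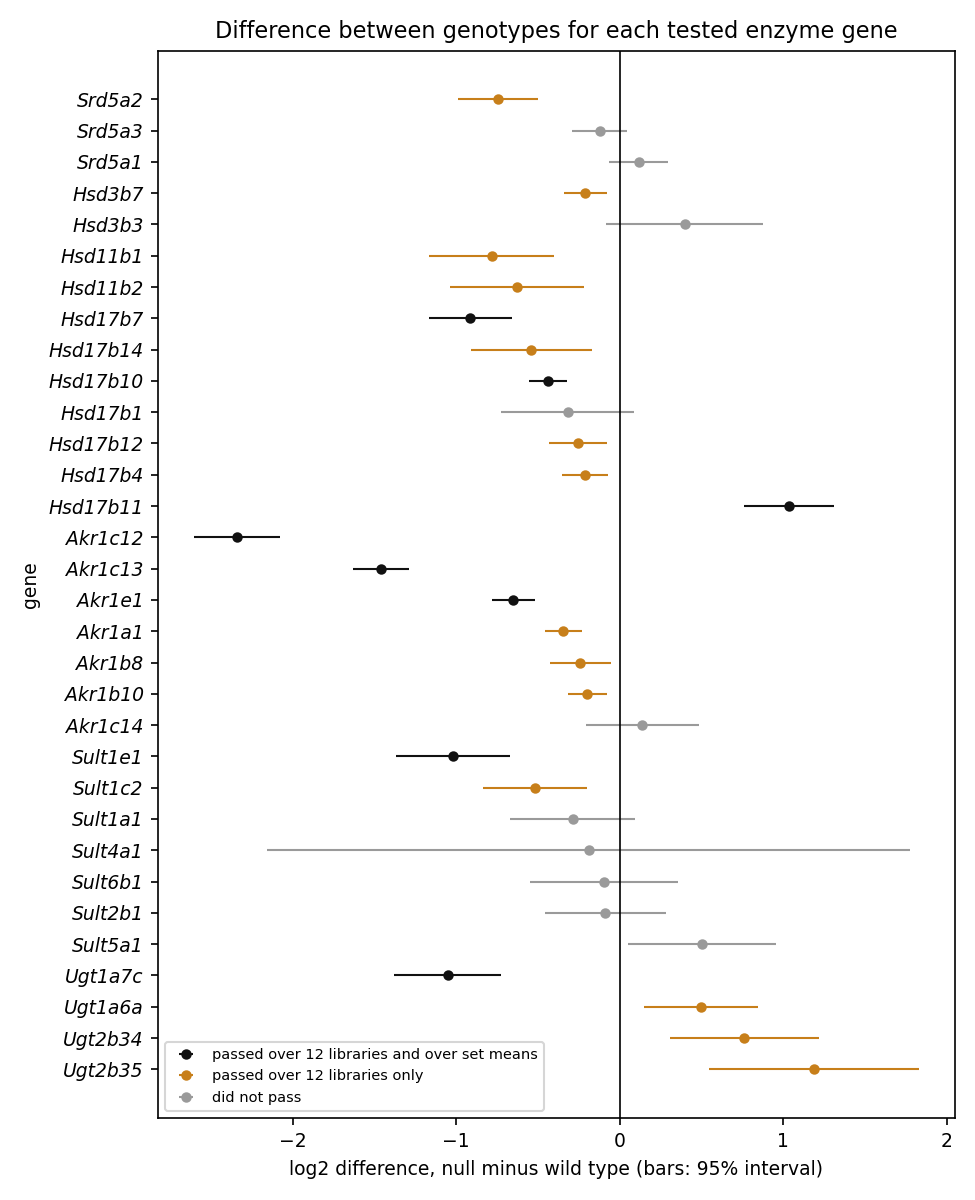
Difference between genotypes (x axis, log2, null minus wild type, with its 95% interval) for the 32 tested enzymes (y axis, by family). Colour tells whether a gene passed over the 12 libraries and over the set means, over the 12 libraries only, or not at all. Akr1c12 lies farthest to the left at -2.34 and Ugt2b35 farthest to the right at 1.18, and the Sult4a1 interval is the widest.

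Conjugation with sulfate was represented by Sult1e1, the estrogen sulfotransferase, which fell, and Sult1c2, a sulfotransferase of phenols, which fell by less. Sult1e1 had 7.04, 7.41 and 8.03 in null libraries, against 8.27, 8.54 and 8.77 in wild-type libraries. The groups did not overlap, although null libraries 1, 2 and 5 averaged 7.84 and libraries 3, 4 and 6 averaged 7.17. The difference was -1.02 (SE 0.161, adjusted p = 1.23e-04, and 0.0478 on set means), a 2.03-fold lower level. Sult1c2 had 3.99, 4.40 and 4.75 in null libraries, against 4.61, 4.85 and 5.13 in wild-type libraries. These ranges overlapped and the difference was -0.52 (SE 0.147, adjusted p = 0.00844, and 0.129 on set means).

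The other 5 tested sulfotransferases did not pass. Sult1a1, which sulfates phenols and estrogens, had a difference of -0.29 (adjusted p = 0.189), with null set means of 7.14 and 6.39. Sult2b1, which sulfates cholesterol and pregnenolone, and Sult6b1 had differences of -0.09 and -0.10. Sult5a1 had a difference of 0.50 (adjusted p = 0.0591) and divided the wild-type libraries, at 8.00 on average in libraries 1 to 3 and 8.75 in libraries 4 to 6. Sult4a1, best known from brain, was at 7.29, 3.27 and 6.33 in null libraries 1, 2 and 5 and at 4.81, 3.21 and 4.36 in null libraries 3, 4 and 6. In wild-type prostate it was at 6.47, 6.47 and 6.71 in libraries 1 to 3 and at 3.71, 3.50 and 3.57 in libraries 4 to 6, so its spread lay within the genotypes. Seminal vesicle, adipocyte and macrophage markers divided the same wild-type sets, and their part in the Sult4a1 and Sult5a1 values was not tested. The hydroxysteroid sulfotransferases Sult2a1 to Sult2a7, which sulfate androgens and bile acids in mouse liver, had means under the olfactory receptor level.

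**Figure D4:**
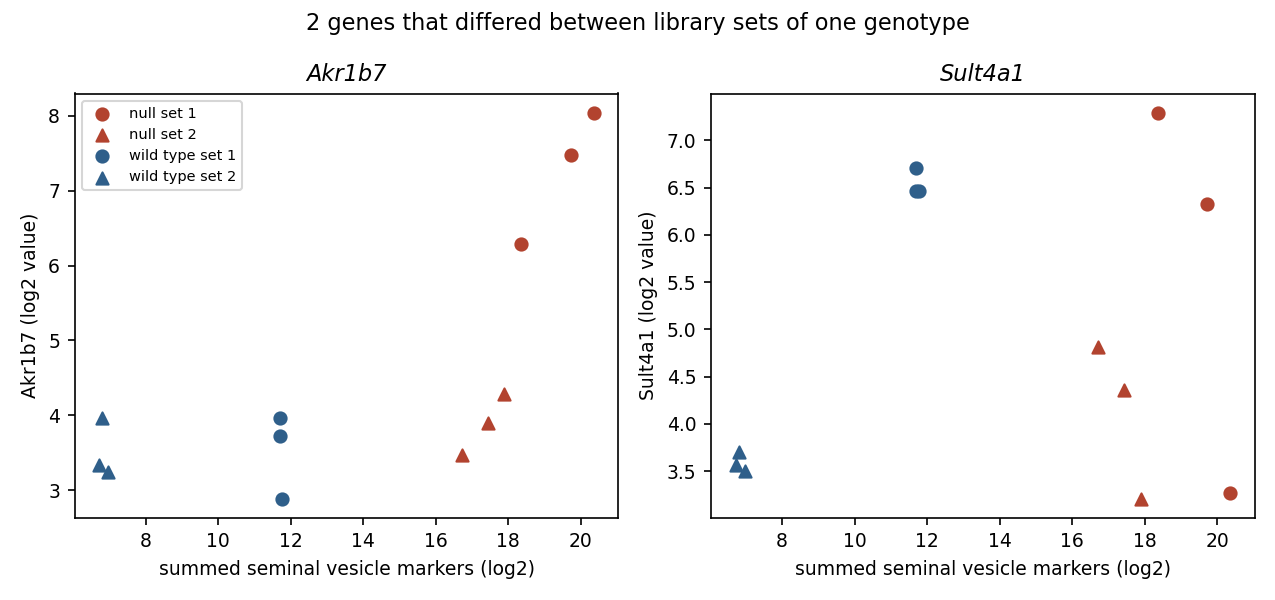
Log2 values of Akr1b7 and Sult4a1 (y axes, 1 panel each) against the summed log2 level of seminal vesicle markers (x axis) in each library, with null libraries in red and wild-type libraries in blue, and circles and triangles for the library sets of a genotype. Akr1b7 is high in null libraries 1, 2 and 5 only, and Sult4a1 divides the wild-type libraries into 1 to 3 and 4 to 6.

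Transcripts of the Ugt enzymes moved in both directions over the 12 libraries, and on set means only Ugt1a7c passed. The Ugt2b enzymes glucuronidate steroids, and Ugt2b34 and Ugt2b35 were the members of that group to pass the filter. Ugt2b35 had 4.51, 5.76 and 6.43 in null libraries, against 4.08, 4.46 and 4.97 in wild-type libraries. The ranges overlapped, with null libraries 1, 2 and 5 at 5.07 on average and libraries 3, 4 and 6 at 6.29. The difference was 1.18 (SE 0.298, adjusted p = 0.00427), a 2.27-fold higher level, and it did not pass on set means (adjusted p = 0.127). Without null libraries 3, 4 and 6 the difference was 0.57, which did not pass either. Ugt2b34 had 4.53, 5.22 and 5.85 in null libraries, against 4.01, 4.33 and 5.02 in wild-type libraries. The ranges overlapped, with a difference of 0.76 (SE 0.213, adjusted p = 0.00769, and 0.0516 on set means). Coding sequences of Ugt2b34 and Ugt2b35 were 73.0% identical, while Ugt2b35 and Ugt2b36, which did not pass the filter, were 88.5% identical.

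The Ugt1a enzymes share their downstream exons and differ in the first, so reads of the shared exons cannot be told apart between them. Ugt1a7c fell in null prostate, with 3.72, 4.03 and 4.36 in null libraries, against 4.82, 5.17 and 5.48 in wild-type libraries. The groups did not overlap, and the difference was -1.05 (SE 0.153, adjusted p = 4.75e-05, and 0.0249 on set means), a 2.07-fold lower level on values near the lower limit. Ugt1a6a, which glucuronidates small phenols, had 5.21, 5.59 and 5.77 in null libraries, against 4.36, 5.14 and 5.29 in wild-type libraries. It rose by 0.50 (adjusted p = 0.0190, and 0.145 on set means). The coding sequences of Ugt1a6a and Ugt1a7c were 79.2% identical with an identical run of 737 bases, and those of Ugt1a6a and Ugt1a6b were 98.4% identical. These 3 genes are therefore uncertain as separate measurements.

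**Figure D5:**
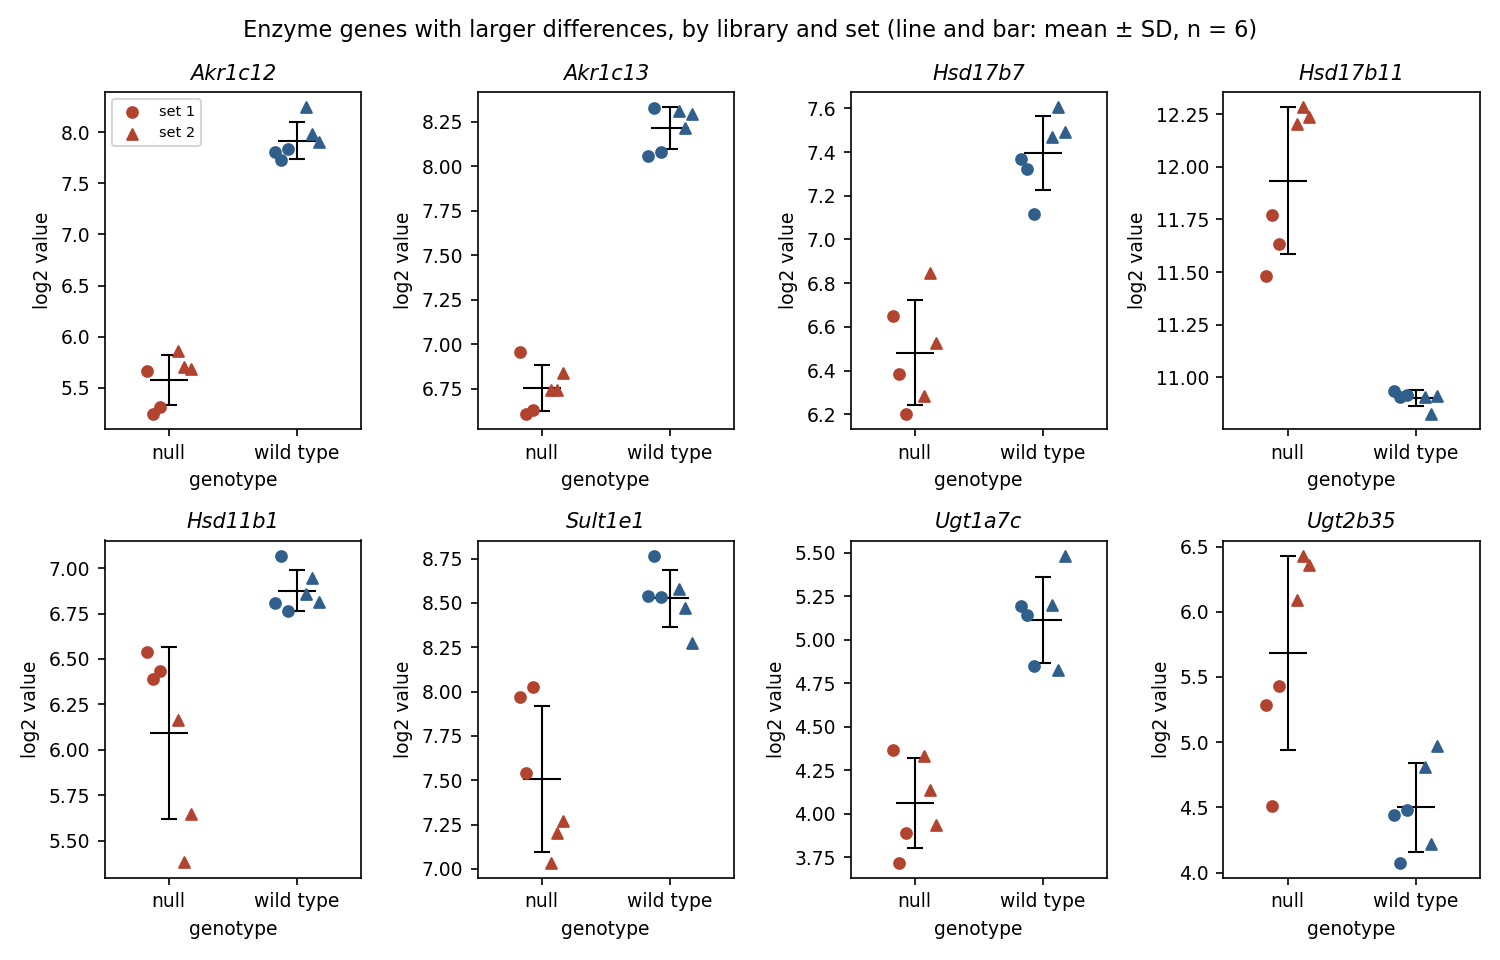
Log2 values in each library (points) of 8 enzymes with larger called differences, null left and wild type right in each panel, with the group mean and SD, and circles and triangles for the library sets. Akr1c12, Akr1c13, Hsd17b7, Hsd11b1, Sult1e1 and Ugt1a7c are lower in every null library than in any wild-type library, Hsd17b11 is higher, and the Ugt2b35 groups overlap.

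The remaining 44 enzymes did not pass the filter, and 37 of them had a mean over the 12 libraries under 3.51. The other 7 were Akr1b7, Akr1c21, Akr1cl, Hsd17b6, Sult1d1, Ugt1a6b and Ugt8a. With no filter, 3 of the 44 passed: Sult1b1 (-1.02, adjusted p = 0.00279), Akr1c19 (-0.60, 0.0355) and Ugt1a6b (0.84, 0.0488). These 3 genes were picked out after their values were seen. Sult1b1 and Akr1c19 lay at 4.23 or lower in every library, near the olfactory receptor level. Ugt1a6b divided the null libraries, at 3.68 or lower in libraries 1, 2 and 5 and at 5.04, 4.95 and 4.61 in libraries 3, 4 and 6, against 2.90 to 3.57 in wild-type libraries.

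Enzymes and receptors that act beside these families were read from lists of related genes, against the same 53.1% of all tested genes that passed. The estrogen receptor Esr1 and the progesterone receptor Pgr rose in null prostate, with differences of 0.78 and 0.88 (limma adjusted p = 6.30e-05 and 0.00177). On set means neither passed, with an adjusted p of 0.0531 for Esr1 and 0.136 for Pgr.

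Among 10 tested genes that supply sulfate donor or mature sulfatases, 5 rose and 3 fell, with a median difference of 0.12, and on set means 1 rose and 1 fell. Papss2, which makes the sulfate donor PAPS, had a mean of 9.85 ± 0.10 in null libraries and 12.40 ± 0.04 in wild-type libraries. Its difference was -2.54 (SE 0.0470, adjusted p = 3.13e-14, and 4.74e-04 on set means). Papss1, the other PAPS synthase, rose by 0.47 (adjusted p on set means 0.0440). Slc35b2, a transporter of PAPS into the Golgi, fell by 0.31 and did not pass on set means (0.179). Of 6 genes for the supply of UDP-glucuronate, 2 rose and 1 fell (median -0.02), and on set means 1 rose and 0 fell. Slc35d1, a transporter of nucleotide sugars into the endoplasmic reticulum, differed by 0.95, Gusb, which cleaves glucuronides, by 0.30 and Ugdh, which makes UDP-glucuronate, by -0.59. On set means Slc35d1 passed (adjusted p = 0.0346), while Gusb (0.240) and Ugdh (0.0575) did not.

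Of 13 other carbonyl and hydroxysteroid reductases, 1 rose and 8 fell (median -0.31), and 1 and 5 did so on set means. Both counts of falls include Rdh16, at 2.99 to 3.64 in null libraries and 4.60 to 5.18 in wild-type libraries. With every null value under 4, Rdh16 passed the filter only through wild-type libraries, so only a fall could be tested. Cbr2, a carbonyl reductase, had a mean of 9.38 ± 0.27 in null libraries and 12.91 ± 0.16 in wild-type libraries, a difference of -3.53 (adjusted p = 2.85e-11, and 0.00130 on set means). Rdh11, a retinal reductase of prostate epithelium, differed by -0.89, and Rdh10, which oxidizes retinol, by 1.15. Of 8 tested genes upstream in steroid synthesis, 2 rose and 3 fell (median -0.21), and on set means 1 rose and 0 fell. Cyb5b, a membrane cytochrome b5, rose by 0.53 (adjusted p = 1.22e-05, and 0.0474 on set means). Fdx1, the ferredoxin of mitochondrial steroid hydroxylation, fell by 0.43 (0.0700 on set means). A further fall was that of H6pd, which supplies NADPH to Hsd11b1 in the endoplasmic reticulum. H6pd had a mean of 10.83 ± 0.22 in null libraries and 11.33 ± 0.08 in wild-type libraries, a difference of -0.50 (adjusted p = 2.37e-04, and 0.0796 on set means). Aromatase, Cyp19a1, was under the olfactory receptor level.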

How the data were processed

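The labels' protocols describe poly-A selected RNA of mouse prostate, Illumina TruSeq libraries and HiSeq sequencing. Among tools, DESeq, Cufflinks 2.0.2, TopHat2 2.0.4 and CASAVA 1.8.2 appear in the submitters' processing notes, as does build mm9, without roles. The authors deposited 1 table of log2-scale values per gene and library, and no source used here names the transformation. A difference on such a scale can understate the change of low genes. The members and the gene lists were chosen with earlier results of these data known. The levels of the targeted gene and of some genes on the related lists are not reported here.

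Genes that reached 4 in 6 or more libraries were tested with limma 3.58.1 in R 4.3.3 (trend and robust moderation), null minus wild type, adjusted over all 15096. Named in full were enzymes that passed with a log2 difference of at least 0.5 either way, every tested Srd5a, Hsd3b and Hsd11b gene and Sult1e1, and of each related list up to 3 that passed, by adjusted p. Other genes named were picked after their values were seen. The fit was first tested on simulated data with independent libraries and no sets, so that test does not speak to the effect of sets. Library sets were the split of each genotype into 3 and 3 with the smallest summed distance of libraries to their set (0.362 for null, next best 0.601, and 0.278 for wild type, next best 0.464, over 10 splits each). Alternatives were quantile and upper-quartile scaling, no moderation by trend, an exact rank-sum test, other filters, set means, the set as a random block, a test against a 1.5-fold change, and leaving out each set or library. Promoters are from RefSeq (GRCm38.p6), where 64 of the 76 enzymes had one, and coding sequences from GENCODE M21.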

Additional observations from a re-analysis of the deposited data

Results flagged for a closer look

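Of 40 groups of 6 libraries examined for a single library apart from the others, 2 held one, where chance gives about 5% of groups. The wild-type library 5 value of Hsd17b11, 10.83, lay below the other 5 wild-type libraries, the nearest of which was at 10.91. The log2 ratio of Srd5a2 over Srd5a1 in null library 3, -0.028, lay above the other 5 null libraries, the nearest of which was at -0.44.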

How the results depend on the processing

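The 4 rises and 18 falls became 1 and 7 on the 4 set means, 2 and 11 with the set as a random block, 2 rises without null libraries 3, 4 and 6, and 11 falls without wild-type libraries 4 to 6. All tested genes that passed numbered 8013, against 2195 on set means and 4984 with the block. The related lists gave 30 genes that passed, against 11 on set means and 23 with the block. Tested against a 1.5-fold change, 3 of the 6 enzymes with at least 2-fold differences passed. Leaving out 1 library gave 4 to 5 rises, 17 to 19 falls, 7586 to 7887 genes, 26 to 29 list genes, -0.95 to -0.82 for Srd5a2 over Srd5a1 and -0.28 to 0.037 for Hsd11b1 over Hsd11b2. The sign of the Hsd11b1 over Hsd11b2 difference also turned without null libraries 3, 4 and 6 (0.13) and without wild-type libraries 1 to 3 (0.084), and that of Srd5a3 without null libraries 1, 2 and 5 (0.046); the cause was not tested. Of the 15 named enzymes that passed, 8 lost their call on set means, 5 with the block, and 0 when any 1 library was left out. An exact test on set means, added after seeing the data, could not pass for Srd5a2 over Srd5a1 (-0.86, p = 0.333, the smallest possible). Upper-quartile scaling changed none of the 32 calls, and quantile normalization ended the call of 1 named enzyme, Hsd17b14. No paired analysis was possible because the labels number no replicates across the genotypes. Without counts, the depth behind low values such as Ugt1a7c and Hsd11b2 is unknown.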

Other observations

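Promoters of the tested enzymes were searched on both strands for further motifs, of which 2 are given here, over the 27 that had a promoter in the RefSeq table. The antioxidant response core TGACNNNGC was found in 4 of 27 (12.4% of all 32851 promoters), and the TATA box TATAAA in 1 of 27 (13.6%). No match says only that these letters are not in the window of 300 bases.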
